A study of Caenorhabditis elegans with 4 samples.

Results

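The regions described here are the JUN-1::GFP peaks on chromosome V of Caenorhabditis elegans, taken as every row of the authors' combined peak list that lies on V. There were 770 of them among 4152 peaks in all. The study mapped where tagged JUN-1 was found on the genome of L4 hermaphrodites, the last larval stage, by chromatin immunoprecipitation with sequencing (ChIP-seq). It has 2 ChIP and 2 input libraries, all of strain OP234, which is unc119(ed3) and carries the wgIs234 transgene, a T24H10.7 (jun-1) construct tagged with EGFP and FLAG, together with unc119. Peak lists were used for both ChIP libraries, with the combined list, and no input values were used. The strain is a single transgenic line made by bombardment and outcrossed 3 times, and whole worms were used, so a peak cannot be placed in a tissue. The sample descriptions contradict the titles, with input DNA written under the ChIP titles and the antibody under the input titles. The titles were followed, and which is right was not tested.

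JUN-1 is the worm relative of the Jun proteins of AP-1, basic leucine zipper factors that bind DNA as dimers, often with a Fos partner. In other animals AP-1 acts in responses to growth signals and stress. Chromosome V is the longest of the worm's chromosomes. Like the other autosomes it has a central part with little recombination and many conserved genes, and arms with more recombination and repeats, and it is known for its large families of chemoreceptor genes. A peak is a stretch that the PeakSeq program called as enriched in the ChIP, and its q-value is the caller's error rate after correction for many tests. Strength below means −log10 q within a list, not the height of the signal, and positions are those of WormBase build WS180. No gene was assigned to any peak, because the gene table used here belongs to another assembly, WBcel235.

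Replicate 1 held 380 peaks on V and replicate 2 held 764. The replicate 1 peaks covered 175 kb, those of replicate 2 386 kb and the combined ones 384 kb, or 0.837%, 1.85% and 1.84% of the span of 20.9 Mb between the first and last called base. The combined density was 36.9 peaks per Mb, against 24.3 to 69.2 on the other 5 chromosomes. V made up 18.5% of the combined list (exact 95% interval 17.4 to 19.8) and 20.4% of the replicate 1 list (18.6 to 22.3). The median combined peak was 367 bp wide, and that of replicate 1 341.5 bp, with a range of 1 to 9283 bp among the combined peaks. Intervals on shares of peaks cover counting error only and treat neighbouring peaks as independent, which they are not. Read depth is unknown for both libraries.

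Peaks were densest in the middle of V and sparse on both sides of it. With the span divided into 3 parts of equal length, called left, centre and right below, the centre held 366 combined peaks (47.5%, 44.0 to 51.1), beside 40.6% over all chromosomes. The left part held 223 (29.0%, 25.8 to 32.3) and the right part 181 (23.5%, 20.6 to 26.7). This is 32.1 peaks per Mb on the left, 52.7 in the centre and 26.0 on the right. Replicate 1 gave 15.5, 25.03 and 14.1 per Mb in the same order, so the centre was the densest part in both libraries. Called bases followed the peaks, at 1.73% of the left part, 2.61% of the centre and 1.19% of the right. The central share on the other chromosomes ran from 35.2% to 42.7% in the combined list and from 33.1% to 44.3% in replicate 1, where V had 45.8%. The difference between V and the others was not tested.

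These parts were not uniform inside. The 21 bins of 1 Mb held 9 to 75 combined peaks, with a median of 31. The densest was that from 13 to 14 Mb, with 75 combined peaks, 39 in replicate 1 and 73 in replicate 2, and it was the densest bin of each list. Next came 10 to 11 Mb with 68 combined peaks, 11 to 12 Mb with 63 and 6 to 7 Mb with 60. Between these lay poorer bins. There were 30 peaks from 7 to 8 Mb and 39 from 12 to 13 Mb, and replicate 1 dropped in the same places, to 11 and 17. The emptiest bin was 17 to 18 Mb with 9 combined peaks, 5 in replicate 1 and 9 in replicate 2. Replicate 1 had its lowest counts, 4 in each, from 2 to 3 and from 3 to 4 Mb, where the combined list had 13 and 20. Toward the right end the counts were higher again, with 30 combined peaks in the last, incomplete bin. Across the 21 bins the counts of both replicates went together (Spearman's rho 0.944, Pearson's r 0.946, a description across bins of the same chromosome).

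**Figure D1:**
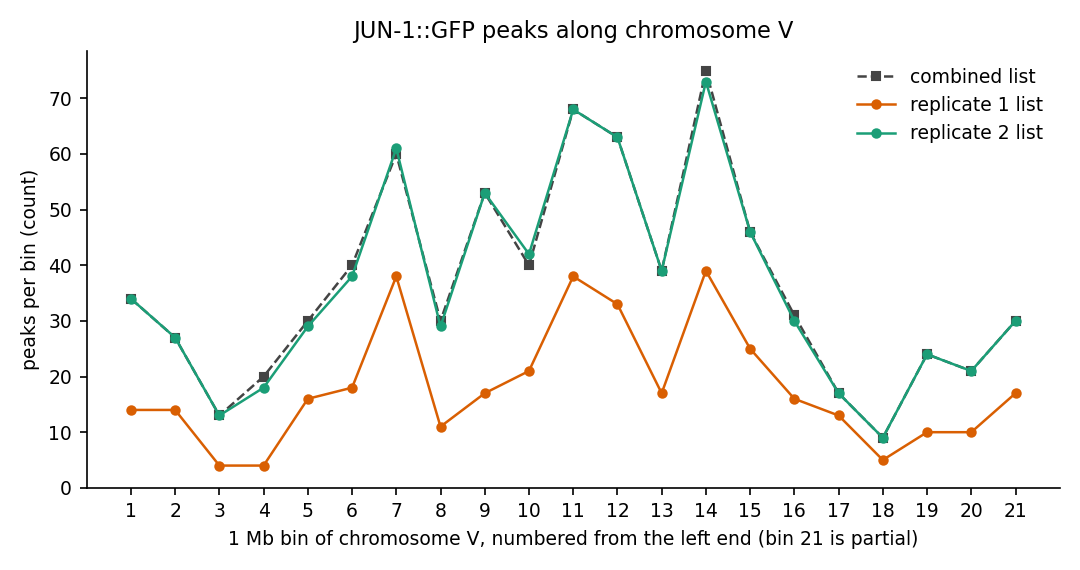
Number of peaks (vertical axis) in each 1 Mb bin of chromosome V (horizontal axis, bins numbered from the left end, the last one partial), with a line for each list. The curves rise at bins 7, 11, 12 and 14 and fall to 13 peaks at bin 3 and 9 at bin 18 in the combined list, and the replicate 1 curve follows at a lower level.

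The right part was poorest in peaks but not in the share with support or in median strength, though it held only 3 of the 25 strongest peaks. Of its combined peaks, 92 (50.8%, 43.3 to 58.3) were found in both replicates, against 165 (45.1%, 39.9 to 50.3) in the centre and 99 (44.4%, 37.8 to 51.2) on the left. Median strengths were 5.86 on the left, 5.96 in the centre and 6.24 on the right, and median widths 356, 368.5 and 376 bp. In replicate 1 the median strengths were nearly equal, at 5.11, 5.17 and 5.20. Its median widths were 339.5, 355 and 334 bp, the right being the narrowest. The sparsest bin, 17 to 18 Mb, had the highest median strength of all 21, at 9.02, with 5 of its 9 peaks in both replicates. The weakest medians were those from 18 to 19 Mb, at 4.77, and from 3 to 4 Mb, at 5.03. The bin from 3 to 4 Mb also had the lowest support, with 4 of 20 peaks found in both replicates.

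The strongest region of V was also the strongest of the whole combined list. It spanned 9283 bp, from 6220704 to 6229986, with a q of 2.27e-294. Replicate 2 called it as 1 region of 9289 bp with the same q. Replicate 1 called 3 neighbouring pieces there, which together covered 91.7% of it. The first piece spanned 2736 bp with a q of 2.66e-39, the middle one, from 6223659 to 6228129, 4471 bp with a q of 1.35e-71, and the last one 1308 bp with a q of 3.06e-25. These pieces took ranks 6, 1 and 10 among the V peaks of replicate 1. Over all chromosomes of that list they ranked 35, 16 and 76, so the first place was not shared by replicate 1. The short gaps between them were not called in replicate 1.

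The next strongest region lay near the left end, at 723376 to 728288. It was 4913 bp wide in the combined list and in replicate 2 (q = 2.77e-109 in both). In replicate 1 it was a single peak of 4725 bp (q = 1.34e-45), the widest of that list on V. Unlike the top region, it was thus called as 1 block in every list. A run of 3 smaller peaks followed close on its right side in all 3 lists.

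**Figure D2:**
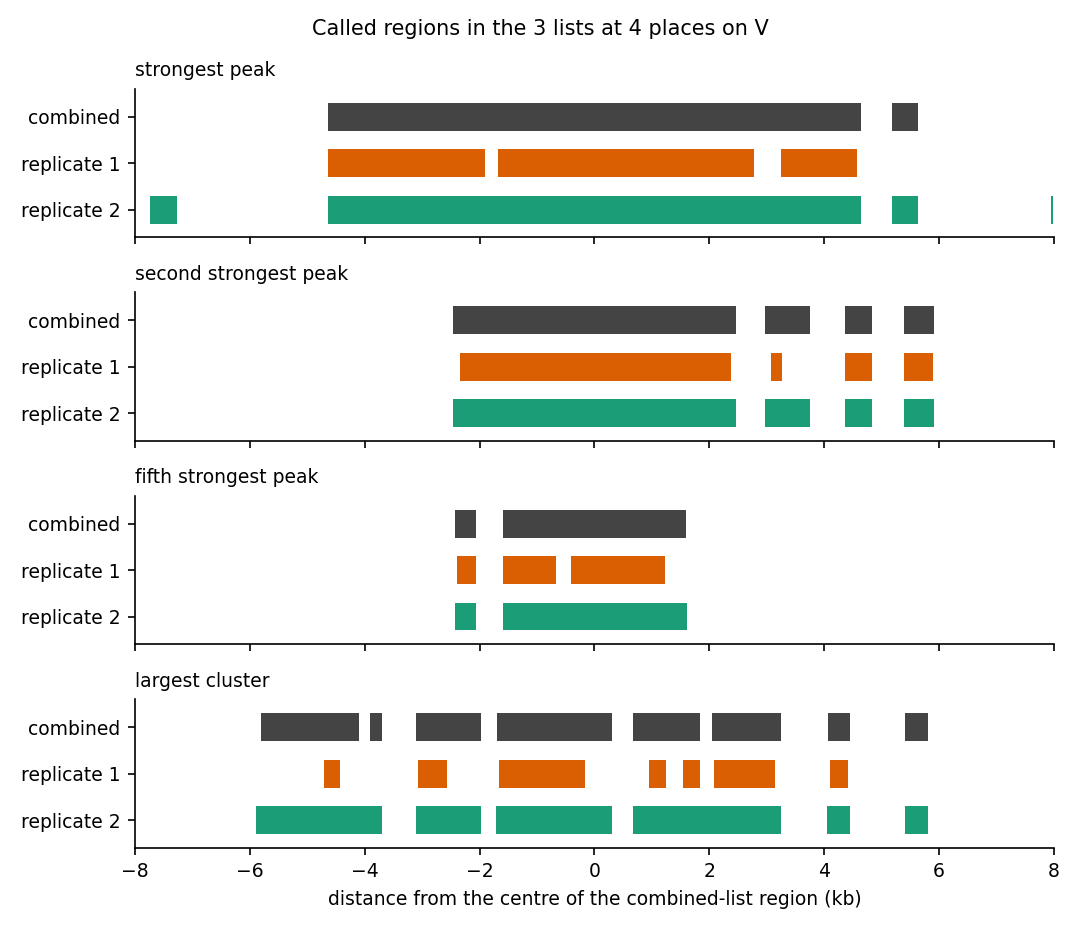
Called regions (bars) in the combined, replicate 1 and replicate 2 lists at 4 places on V, against the distance in kb from the centre of the combined-list region. Replicate 1 shows 3 pieces where the strongest peak is 1 bar of 9283 bp in the combined list, 1 bar at the second strongest, 2 pieces at the fifth strongest and 7 narrower bars in the cluster of 8 combined peaks.

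A pair of stretches, with ends set at strong peaks after their values were seen, held 9 of the 25 strongest V peaks and 7 of the 10 strongest. The first ran over 279 kb from 5999886 to 6279271 and held 26 combined peaks, 22 of replicate 1 and 26 of replicate 2. It held 5 of the 25 strongest V peaks and 3 of the 10 strongest. At its left edge stood 5999886 to 6001714 (1829 bp, q = 6.55e-86 combined and 4.63e-46 in replicate 1), at rank 4 on V in the combined list and rank 2 in replicate 1. At its right edge stood 6276077 to 6279271 (3195 bp, q = 7.06e-84). Replicate 1 called the latter as 2 pieces of 916 and 1635 bp, with q-values of 1.46e-12 and 2.38e-32, so its right part was the stronger one there. The top region of V lies between them.

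The second stretch ran over 390.0 kb from 9342913 to 9732903 and held 18 combined peaks. Among them were 4 of the 25 strongest V peaks, all of which were also among the 10 strongest. The strongest of these was 9342913 to 9344687 (1775 bp), with a q of 1.2e-93 in the combined list and 1.22e-39 in replicate 1. The peak at 9730735 to 9732903 (2169 bp, q = 1.22e-79) was 1425 bp wide in replicate 1 (q = 1.35e-40), where it ranked one place above the former on V. The peak at 9630866 to 9632503 had nearly the same width in both libraries, 1588 bp in replicate 1 and 1647 bp in replicate 2. The fourth, 9546056 to 9547945, was not alike in the libraries. Its q of 1.01e-62 in the combined list belonged to a peak of 1890 bp, whereas replicate 1 had a strong peak of 391 bp (q = 6.58e-32) and a weak one of 200 bp (q = 9.9e-05), which covered 31.3% of it.

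Among the remaining top peaks, 1151093 to 1152069 (977 bp, q = 7.73e-57) and 1157249 to 1159004 (1756 bp, q = 1.44e-36) lay close together on the left. The former opens the list of peaks after a long empty stretch. It was 840 bp wide in replicate 1 with a q of 7.98e-32, the latter 1486 bp with a q of 6.73e-23. The peak at 5049324 to 5050483 (1160 bp) had a q of 3.09e-54 and, in replicate 1, of 1.09e-22. In the right part stood 18637540 to 18640710 (3171 bp, q = 2.59e-43), 14354131 to 14355076 (946 bp, q = 1.54e-36) and 18967500 to 18967981 (482 bp, q = 6.7e-34). Only the first of these was broad in both libraries, at 3171 bp in replicate 2 and 2819 bp in replicate 1. The last was, with 8606279 to 8606777 (499 bp, q = 9.88e-34), one of the narrow peaks among the strongest 25. In replicate 1 these narrow peaks were 368 and 392 bp wide and held V ranks 15 and 17.

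By position, 10 of the 25 strongest lay on the left, 12 in the centre and 3 on the right. All 25 were found in both replicates and all 25 were among the 25 strongest V peaks of replicate 2, from which the combined list mostly takes its values. In replicate 1, 19 had a main partner among the 25 strongest and 21 among the 50 strongest. The other 4 were 5834161 to 5837067, 13656156 to 13657783, 12301763 to 12304327 and 12551488 to 12553564. Of these, the region at 5834161 differed most. It was a single block of 2907 bp in the combined list (q = 1.96e-33), but replicate 1 had 3 pieces of 562, 287 and 882 bp with q-values of 2.53e-06, 7.04e-06 and 4.73e-06. The region at 12551488 was 2077 bp wide (q = 1.01e-31) and 601 bp in replicate 1 (q = 3.99e-09), at V rank 85. The region at 12301763 was 2565 bp wide (q = 1.62e-35), with replicate 1 pieces of 474 and 750 bp (q = 9.5e-07 and 6.72e-11).

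The central peaks at 10896356, 10711464, 10857957 and 8670950 and the left peaks at 6015599 and 6011855 complete the 25, with combined q-values from 2.59e-32 to 1.4e-39 and V ranks of 13 to 28 in replicate 1.

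Where both replicates called a V peak, that of replicate 2 was mostly the wider. Over all V peaks the median widths were 341.5 bp in replicate 1 and 368 bp in replicate 2. Over all chromosomes they were 371 and 363 bp, the other way round. The main replicate 1 partner was narrower for all 25 of the strongest peaks, with a median of 1076 bp against 1829 bp in the combined list. These 25 were chosen by the combined q, which equalled that of replicate 2 for 17 of them, and strength goes with width. The choice itself thus favours narrower replicate 1 partners. Over 354 peaks of V matched one to one between the replicates, replicate 2 was the wider in 324 (91.5%), with medians of 348.5 and 477.5 bp. The smaller q was that of replicate 2 in 349. Midpoints differed by a median of 26 bp, by at most 100 bp in 277 pairs (78.2%) and by at most 1143.5 bp in all. Pairs were made by shared bases, which keeps their midpoints close. Strength (Spearman's rho 0.769) and width (0.804) were ordered alike across the matched peaks, which share a chromosome and a caller. Of 355 replicate 1 peaks matched to a combined peak, 289 (81.4%) lay wholly inside it.

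Almost every V peak of replicate 1 was found again, while more combined peaks lacked a replicate 1 partner than had one. Of 380 replicate 1 peaks, 373 (98.2%, 96.2 to 99.3) overlapped replicate 2 by at least 1 bp, beside 97.6% over all chromosomes. Of the 770 combined peaks, 356 (46.2%, 42.7 to 49.8) overlapped both lists, beside 41.9% over all chromosomes. The share on the other chromosomes ran from 24.0% on I to 52.9% on III. A further 394 overlapped replicate 2 only, 20 overlapped neither list (2.597%, beside 2.02%) and 0 overlapped replicate 1 only. Replicate 2 had a replicate 1 partner for 355 of its 764 V peaks (46.5%, 42.9 to 50.1), beside 42.1%.

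Support followed strength. The 114 strongest combined peaks on V were all found in both replicates. The first without replicate 1 support, at rank 115, was 1261663 to 1262857 (1195 bp, q = 1.81e-14). Cut by rank into 7 groups of 110, support was 100% in the first group (96.7 to 100) and 84.5% in the second (76.4 to 90.7). It was 67.3% in the third (57.7 to 75.9) and 33.6% in the fourth (24.9 to 43.3). The last group had 4.55% (1.49 to 10.3). The q-values ended at 2.25e-07 in the third group and at 3.58e-06 in the fourth. Peaks in both lists had a median strength of 9.86 and a median width of 475 bp, against 4.73 and 295 bp for those in replicate 2 only. Whether the unsupported places were unbound in replicate 1 or missed at its depth was not tested.

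**Figure D3:**
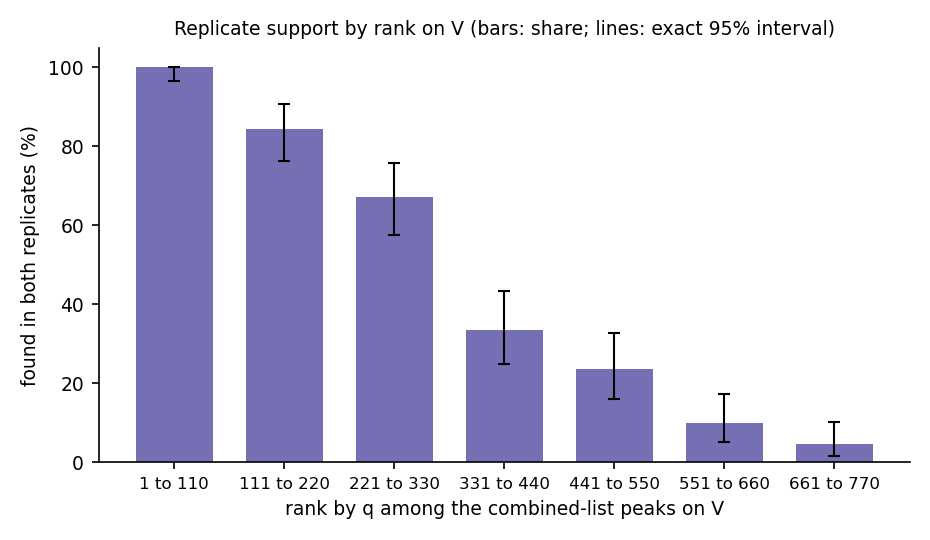
Share of combined-list peaks on V found in both replicates (bars, in percent, with exact 95% intervals as lines) in 7 groups of 110 peaks ordered by q. It falls from 100% in the strongest group to 4.55% in the weakest.

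After 1261663, the strongest V peak of replicate 2 with no replicate 1 partner was 14828419 to 14829479 (1061 bp, q = 4.76e-14). It was followed by 13202083 to 13202672 (590 bp), 4652586 to 4654130 (1545 bp) and 6532888 to 6533362 (475 bp), with q-values between 4.31e-13 and 6.51e-13. These 5 held ranks 113 to 136 among the V peaks of replicate 2. The one at 4652586 had a near neighbour in replicate 1. A peak there from 4652279 to 4652347, 69 bp wide (q = 7.83e-05), ended just left of it and counts among the 7 replicate 1 peaks that replicate 2 lacked. All 7 were narrow, from 3 to 250 bp, and weak, the smallest q being 2e-05 at 20394327 to 20394356. Of the 5 strongest, 3 lay beyond 20.3 Mb, close to the right end, and 0 of the 5 overlapped a combined peak. The last of these 3, 14 bp wide and ending at 20861905, sets the right end of the span used here.

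Broad peaks, of 1 kb or more, held much of the called sequence. There were 72 (9.35%, 7.39 to 11.6), beside 8.96% over all chromosomes. They made up 125 kb or 32.6% of the called bases, beside 31.1% over all chromosomes. Replicate 2 had 69 (9.03%) and replicate 1 only 23 (6.05%, 3.88 to 8.94), so without replicate 2 the share is more than 1.5 times lower. The left part had 26 (11.7% of its peaks, 7.76 to 16.6), the centre 33 (9.02%, 6.29 to 12.4) and the right 13 (7.18%, 3.88 to 12.0). Over the other 5 chromosomes the right part had the largest share, 12.0% (10.1 to 14.1), and the left 7.35% (5.81 to 9.14), which was not tested against V. The bins from 6 to 7 and from 10 to 11 Mb had 9 broad peaks each. The bin from 1 to 2 Mb had 7 among only 27 peaks, and the densest bin, 13 to 14 Mb, had 2 among 75. The widest peak under the limit had 990 bp, at 13369292, and the narrowest above it 1007 bp, at 14083470.

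Of the 72 broad peaks, 45 had a single replicate 1 partner, 15 had 2 or 3 and 12 had none. The partner with most shared bases was narrower than the combined peak in 59 of the 60 with one, and reached 1 kb in 21. Narrower partners are favoured here, because the peaks were chosen by width in the combined list, which mostly repeats replicate 2. Only 1 piece was counted where replicate 1 had several. All 13 peaks of 2 kb or more were found in both replicates. Of the 10 widest, 7 were among the 25 strongest. The others were 19049073 to 19051772 (2700 bp, q = 1.61e-19), 16592106 to 16594735 (2630 bp, q = 2.21e-24) and 9074061 to 9076546 (2486 bp, q = 1.85e-29). The first of these was called over 369 bp in replicate 1 (q = 3.25e-05), or 13.7% of its width. The second had 2 replicate 1 pieces that covered 76.5% of it. The broad peak with the largest q was 7855633 to 7856866 (1234 bp, q = 0.000169), at V rank 709. Its replicate 1 partner, 7854505 to 7855741 (1237 bp), overlapped only its left edge, over 8.83% of its width. This partner was the only one not narrower than its combined peak, and is counted among the 21. Across all combined V peaks, width and strength had a Spearman's rho of 0.648 (n = 770), and replicate 1 had 0.634 (n = 380). Both come from the same call, so wide and strong are not separate observations.

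**Figure D4:**
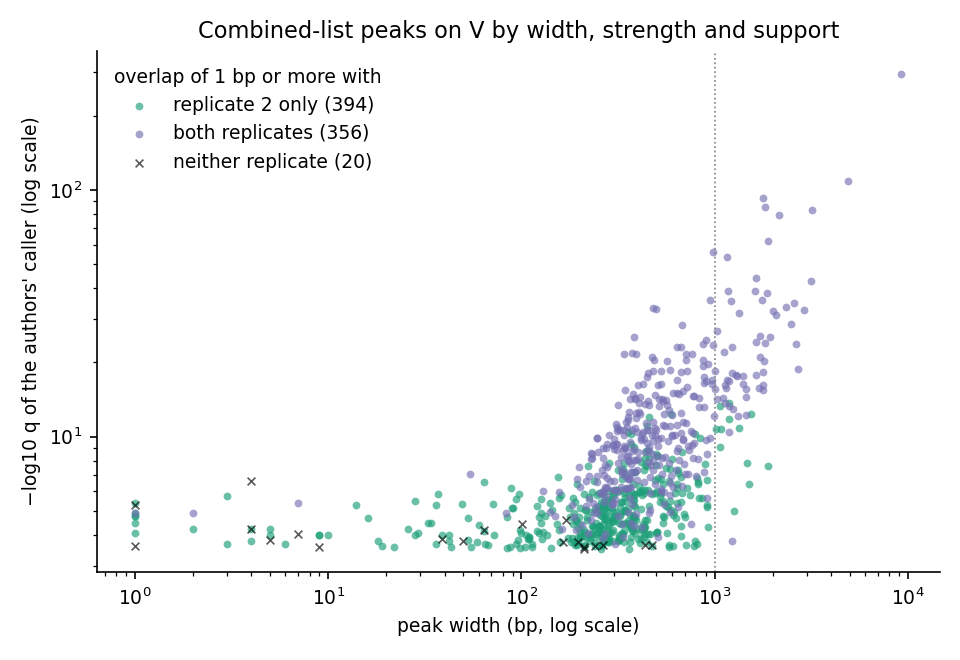
Strength (−log10 q, log axis) against width (bp, log axis) of the 770 combined-list peaks on V, 1 point each, coloured by the replicate lists they overlap, with a dotted line at 1000 bp. The region of 9283 bp stands apart at the top right, and the points found in replicate 2 only lie at a strength of 13.7 or less.

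Peaks also came in clusters, chains in which each midpoint lies within 2000 bp of the next. In the combined list 259 V peaks (33.6%, 30.3 to 37.1) had such a neighbour, beside 32.6% over all chromosomes, and they formed 98 clusters. Replicate 1 had 100 of 380 (26.3%, 21.96 to 31.05) in 40 clusters. Most were small, with 59 pairs and 25 triplets in the combined list. The centre held 51 clusters, the left part 25 and the right 22. The share with a neighbour was 37.7% in the centre (32.7 to 42.9), 30.04% on the left (24.1 to 36.5) and 29.8% on the right (23.3 to 37.1). Replicate 1 had another order, with 28.7% in the centre (22.1 to 36.1), 32.4% on the left (23.7 to 42.1) and 15.3% on the right (8.83 to 24.0). Over the other 5 chromosomes the combined list had 35.2% in the centre, 27.1% on the left and 33.8% on the right. A denser part has more neighbours by its density, and whether clustering on V goes beyond that was not tested. In the bin from 13 to 14 Mb, 39 of 75 peaks had a neighbour, whereas from 12 to 13 Mb 5 of 39 did and from 17 to 18 Mb 0 of 9. Distances between midpoints leave out wide peaks whose edges are close. The broad peaks at 12300052, 12301763 and 12304607 lie 427 and 279 bp apart, yet do not count as neighbours of one another. The regions of 9283 and 4913 bp cannot have a neighbour by this rule, though other peaks lie 544 and 521 bp away.

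The largest cluster, from 6007754 to 6019360, held 8 combined peaks that covered 70.3% of its 11607 bp. It lies inside the first of the strong stretches. Its members ran from 194 to 2000 bp, and the strongest were 6015599 to 6016809 (1211 bp, q = 2.87e-36) and 6011855 to 6013854 (2000 bp, q = 6.33e-33). Replicate 2 called 6 regions there and replicate 1 called 7. By their own midpoints, these did not form 1 chain in either library, so the cluster of 8 belongs to the combined list. At 6015599 replicate 2 had a single region of 2591 bp from 6014221 to 6016811 (q = 5.31e-52), where the combined list has 2 peaks. Replicate 1 had a peak of 1076 bp for the right one of these (q = 5.41e-17) and 2 short ones for the left. Only the outermost right peak, 389 bp wide, and the one of 194 bp had no replicate 1 partner.

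The next largest cluster, from 11531051 to 11537913 in the centre, had 6 peaks in the combined list, 6 in replicate 2 and 3 in replicate 1, over 6863 bp. After it, 4 clusters tied with 5 combined and 5 replicate 2 peaks each. Of these, 3 lie in the densest bin, from 13197322 to 13202673, from 13369292 to 13374868 and from 13653936 to 13659533, over 5352, 5577 and 5598 bp. The other one lies in the right part, from 20405589 to 20411089, over 5501 bp, with 2 peaks in replicate 1. In the densest bin, replicate 1 had 4 peaks in the first cluster, 2 in the second and 5 in the third. The third cluster contains the peak at 13656156 (1628 bp, q = 7.81e-40) and was covered by peaks over 77.0% of its length. Chained by its own midpoints, replicate 1 had no cluster of more than 5 peaks on V. Its 7 peaks in the largest combined cluster thus did not form 1 chain.

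V also had the longest stretches without any peak. From 16967046 to 17659203, over 692 kb, the combined and replicate 2 lists had no peak, and replicate 1 had none over 693 kb from 16965964 to 17659224. It was the longest stretch of any chromosome in the combined and replicate 2 lists, and the second longest in replicate 1. The right flank was the same peak in all 3 lists. This peak, 17659204 to 17659786 (583 bp), had a q of 1.54e-13, and of 1.25e-08 in replicate 1. On the left the last combined peak was 191 bp wide (q = 2.54e-05), and the last of replicate 1, a little further out, 309 bp (q = 1.78e-08).

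The second longest ran from 2688957 to 3119354, over 430.4 kb, and its right end was a weak peak of 36 bp (q = 0.000215). In replicate 1, where neither flanking peak was called, the empty stretch was 699.7 kb, from 2615611 to 3315348, the longest of that list. These 2 places were the longest empty ones in all 3 lists. The longest stretches elsewhere were 336 kb in the combined list, on II, and 534 kb in replicate 1, on IV. V is also the longest chromosome by span, at 20.9 Mb against 13.7 to 17.4 Mb, and whether the difference goes beyond that was not tested. Whether reads can be placed in these stretches was not tested either, as no input coverage was used.

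The next 3 were 2308658 to 2600587 (292 kb), 904972 to 1151092 (246 kb) and 18079477 to 18324569 (245 kb). The first and second had the same flanking peaks in all 3 lists, and the third had a longer counterpart of 267 kb in replicate 1. Of the 8 combined stretches of 200 kb or more on V, 3 lay in the left part, 0 in the centre and 5 in the right. Other chromosomes had from 1, on X, to 7, on II. Replicate 1, with fewer peaks, had 9, 3 and 10 such stretches in the left, central and right parts. The median distance between neighbouring combined peaks was 9049 bp on the left, 6519 bp in the centre and 12843 bp on the right.

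**Figure D5:**
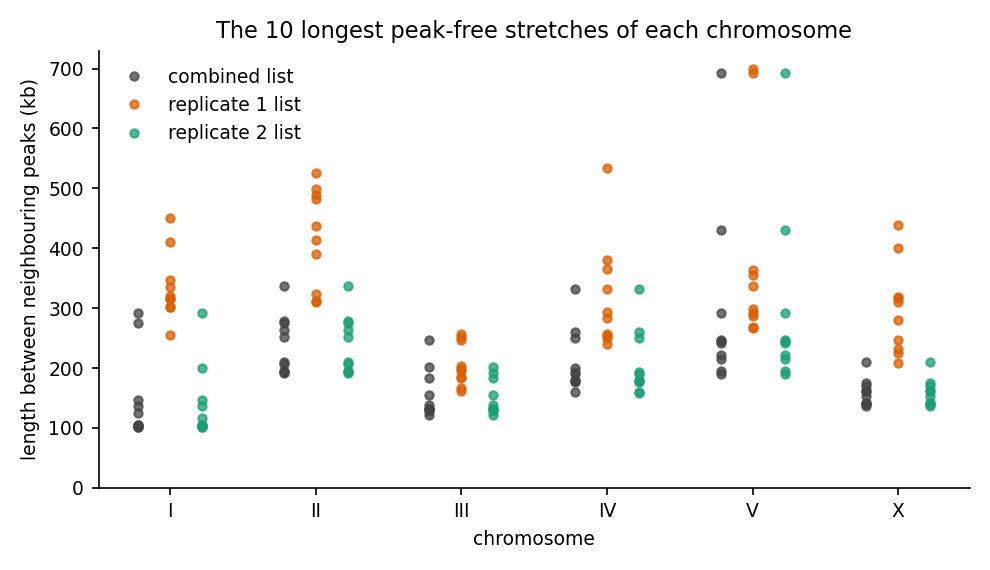
Length in kb (vertical axis) of the 10 longest peak-free stretches of each chromosome (horizontal axis), 1 point each, coloured by list. V has the points near 692 kb in all 3 lists, and 430.4 kb in the combined list, above the 336 kb of II.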

How the data were processed

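Per the file headers, the deposited lists give PeakSeq regions on WormBase WS180, each with its ends and the q-value of the authors' caller. The sources used here do not give the aligner, filters, q limit, use of the inputs or way of combining the replicates. Samples were grouped by title. The labels do not say whether replicates were separate cultures. The lists hold no read counts, so depth is unknown. From them were computed overlaps of at least 1 bp, one-to-one matches by shared bases, 3 equal parts of the span between the outermost called bases of any list, 1 Mb bins by midpoint, clusters of midpoints within 2000 bp, and stretches between peaks. Each list's q was used to rank or describe peaks within it. Shares carry exact (Clopper-Pearson) 95% intervals. No test between groups was possible, as each ChIP library gives 1 list, so no p-value is printed. Functions were tested on simulated data. Named regions are the 25 strongest and 10 widest combined peaks, the 5 clusters with the most peaks (ties by position, the tied sixth also given), the 5 longest empty stretches, the densest and emptiest bins, and the 5 strongest peaks of each list without a partner. Other bins and peaks named were chosen after their values were seen. Regions and measures were chosen with earlier results of these data known. Alternatives were other overlaps, distances, widths and subsets of peaks. Python 3.11.15, numpy 2.4.6, pandas 2.3.3, scipy 1.17.1 and matplotlib 3.10.9 were used.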

Additional observations from a re-analysis of the deposited data

How the results depend on the processing

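Of 36 alternatives over 7 results, 18 stayed within the interval or replicate spread of the main value and 18 did not; the cause was not tested except where the alternative itself changes the limit or the number of peaks. The V share of 18.5% ranged from 18.4% to 20.4% when 1 replicate was left out and was 20.5% among peaks in both replicates. Support in both replicates, 46.2%, was 80.9% in the better-ranked 50% of the list and 38.2% with an overlap of 50% of both peaks. For replicate 1 peaks found in replicate 2, 98.2%, these values were 100% and 77.9%. The central share of 47.5% was 69.1% for the central 50% of the span, and 45.8% to 47.8% with a replicate left out. The share with a neighbour, 33.6%, was 26.2% in the better-ranked 50%, 26.3% to 33.5% with a replicate left out, 10.8% within 1000 bp and 59.4% within 5000 bp. The share of broad peaks, 9.35%, was 19.1% in the better-ranked 50%, 16.9% in both replicates, 6.05% to 9.03% with a replicate left out, 31.0% for 500 bp and 1.69% for 2000 bp. The longest empty stretch, 692 kb, was 714 kb in the better-ranked 50% and 692 to 699.7 kb with a replicate left out. No paired analysis was possible because only the ChIP libraries have lists here. Unknown depth limits every count of unshared peaks.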

Other observations

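The combined list on V mostly repeats replicate 2. Of 770 combined peaks, 477 (61.9%) matched a replicate 2 peak in both ends and in q, and 563 of 745 matched pairs (75.6%) had the same q. No pair matched with replicate 1 had, among 355. Counts from the combined list and replicate 2 are therefore not separate evidence.

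Some calls on V were very short. Of the combined peaks there, 47 (6.10%, beside 4.55% over all chromosomes) were under 50 bp, with a median width of 9 bp. Their q-values ran from 2.31e-07 to 0.000268, and 39 overlapped replicate 2 and 3 replicate 1. The median distance to the nearest other peak was 5904 bp, with 10 of the 47 within 1000 bp of one and 0 within 200 bp. The strongest of them, 7142792 to 7142795, was 4 bp wide and was also the strongest of the 20 combined peaks found in neither replicate list. The next of those 20 were 5954396, a single base with a q of 5.46e-06, 7541214 to 7541383 (170 bp), 6559824 to 6559924 (101 bp) and 7971994 to 7971997 (4 bp). The 20 had a median width of 82.5 bp, with 474 bp as the widest.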
